A study of Mus musculus with 24 samples.

Results

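Genes that drive the cell cycle and copy DNA were followed in the gastrocnemius, the large calf muscle, of young and adult mice after a scald burn. The set holds 34 genes, chosen by name, out of 55401 genes in the deposited table, and each name matched 1 gene identifier. All mice were male C57BL6, and the design crossed 2 ages with sham or burn, which gave 4 groups of 3 mice with 1 library of poly-A RNA from each mouse. Young mice arrived at 4 weeks and adult mice at 10 weeks of age, and after 1 week of acclimation they were 5 and 11 weeks old at the procedure. Burned mice received a scald over 25% of the body surface. Sham mice went through anesthesia and analgesia without the burn and without fluid resuscitation, so the burn cannot be told apart from the fluid given with it. RNA came from whole muscle taken 24 h after the procedure, with no sorting of cells.

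A cell that divides first commits to a new round through cyclins of G1 phase, then loads and fires the ring-shaped MCM helicase at replication origins, copies its DNA, and finally builds a spindle to part the chromosomes. Transcription factors of the E2F family switch on the replication genes, while the mitotic genes peak later and share promoter elements called CHR and CCAAT boxes. Muscle fibres are postmitotic, so cells that can divide in muscle are mainly satellite cells, which are its stem cells, together with fibroblasts, endothelial cells and leukocytes.

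The cell cycle genes were scarce in all 4 groups, and 14 of the 34 could be tested. Averaged over sham and burn, young muscle held more Rrm2 and Tyms, both needed to make DNA precursors, and less Tpx2, a spindle assembly factor. These 3 are 21.4% of the 14, where 20.3% of all genes tested differed between ages. Among burned mice, Mcm6 of the replicative helicase was higher and Tpx2 lower in the young. No gene of the set passed the test for burn against sham at either age. The summed level of the 34 genes was nearly the same in all groups, at 119 ± 20.2 CPM in young sham, 132 ± 10.2 CPM in young burn, 122 ± 8.63 CPM in adult sham and 124 ± 10.1 CPM in adult burn (SD, n = 3). The 6 helicase genes held 35.6% of the counts of the set and the 3 DNA synthesis genes 31.2%, so the sum mostly follows them. It does not show that the mitotic genes were level. CPM is the count of a gene scaled to a common library size after TMM normalisation. In bulk muscle, fewer dividing cells and less RNA per cell cannot be told apart.

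Total counts per library ran from 4392605 to 5688512, so that 1 count was worth 0.167 to 0.243 CPM. A count of 0 allowed up to 3 counts, or 0.501 to 0.729 CPM depending on the library, and such limits cover counting error only. Young burn replicate 2 stood apart from its group. Its median absolute log2 difference from its group mates over all genes tested was 0.366, against 0.159 to 0.255 in the other 11 libraries, and it held the highest neutrophil marker sum, 26.9 CPM against at most 12.9 CPM elsewhere. That sum rested on S100a8 at 22.9 CPM, while its S100a9 at 3.82 CPM was below the 4.11 and 5.09 CPM of its group mates. Young burn replicate 2 also held the highest value of 11 of the 34 genes, a count that was not taken over all genes. For this reason the counts of called genes and the main differences are given with all 12 libraries and again with the 11 libraries left without it.

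Of the 34 genes, 14 held enough counts to be tested and 20 did not. Those tested were Ccnd1, all 6 MCM genes, Pcna, Rrm2, Tyms, Aurka, Ube2c, Tpx2 and Mki67. The 20 genes that were left out summed to 821 counts over 12 libraries, ranged from 11 to 87 counts each, and had no more than 17 counts in any library. The 3 genes just below the limit were Kif11 with 87 counts, Top2a with 82 and Bub1b with 67, and the 3 just above it were Mcm5 with 103, Mki67 with 132 and Tyms with 135. Hmmr, Bub1 and Ccnb1 were each at 0 in 5 libraries. All 34 genes together held 7501 counts. The 6 helicase genes took 35.6% of these, the 3 DNA synthesis genes 31.2%, and the 23 mitotic genes 27.5%.

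Per kilobase of exon, the scale on which genes can be compared, Pcna was the highest of the set at 14.1 CPM per kilobase, as the mean of 12 libraries. Pcna codes for the clamp that holds DNA polymerase on its template and also serves DNA repair. Mcm7 followed at 3.32, Mcm4 at 2.45, Aurka at 2.43 and Tpx2 at 2.07 CPM per kilobase. Mki67, the gene of the proliferation antigen Ki-67, reached 0.217 CPM per kilobase and ranked 18 of 34, and Hmmr was lowest at 0.0345. The levels of replication and mitotic genes interleaved, since Ccnb2 at 0.528 lay above Mcm5 at 0.427 and Tyms at 0.368 CPM per kilobase.

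**Figure D1:**
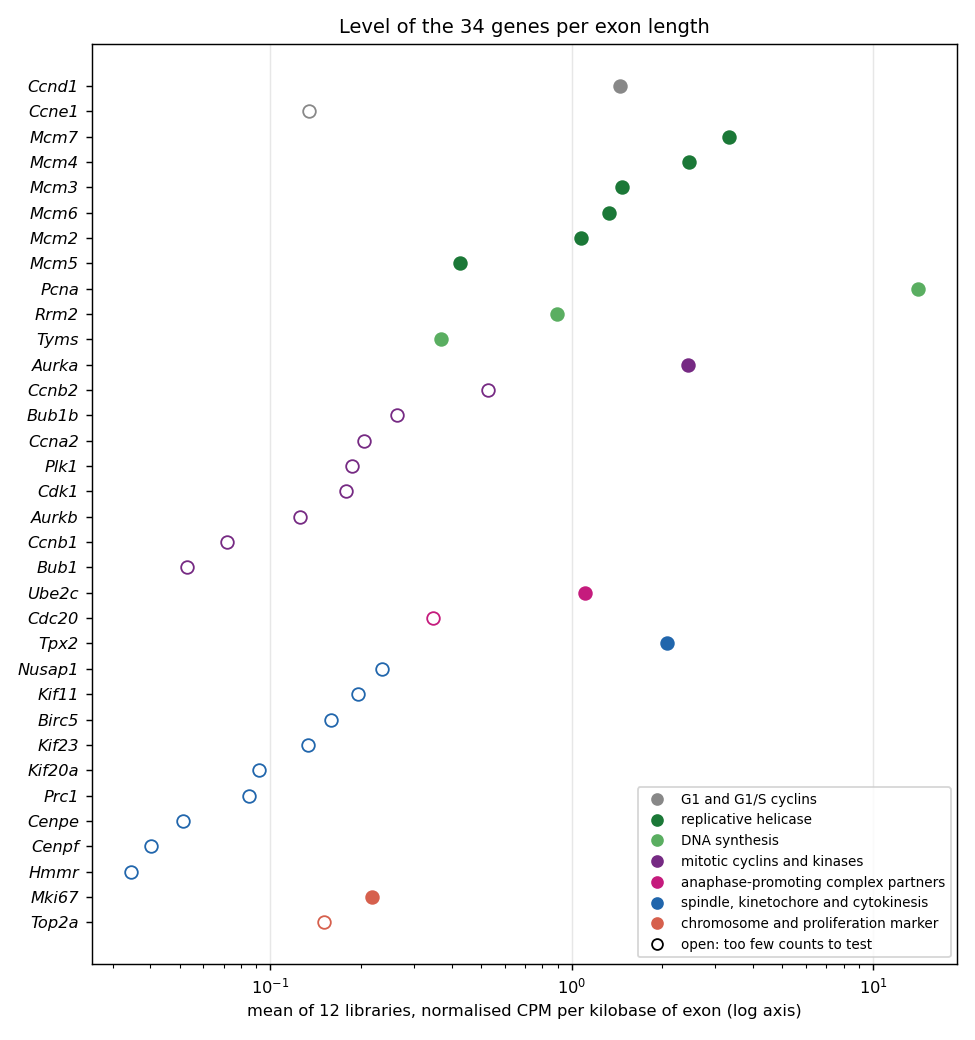
Mean level of each of the 34 genes over 12 libraries, in normalised CPM per kilobase of exon on a log axis, coloured by role, with open circles for the 20 genes that held too few counts to test. Pcna stands at 14.1, most of the spindle genes stand below 0.3, and Hmmr is lowest at 0.0345 CPM per kilobase.

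The first group by role was the G1 cyclins. Ccnd1, cyclin D1, which links growth signals to entry into the cycle, stood at 6.07, 9.49 and 9.48 CPM in young sham, 10.4, 6.55 and 5.30 CPM in young burn, 8.24, 5.65 and 7.19 CPM in adult sham, and 7.52, 3.42 and 2.59 CPM in adult burn. The groups overlapped in every comparison. The difference of young burn from adult burn was 0.70 ± 0.36 on the log2 scale (SE, adjusted p = 0.219), and that of adult burn from adult sham was -0.62 ± 0.37 (adjusted p = 0.762). These were 0.79 ± 0.39 (adjusted p = 0.156) and -0.62 ± 0.36 (adjusted p = 0.471) without young burn replicate 2. Ccnd1 shares 1100 exonic bases with LTO1 on the opposite strand. Ccne1, cyclin E1, which acts at the G1/S transition, held 22 counts in all and no more than 4 in a library, and was highest in young burn at 0.714, 0.546 and 0.611 CPM. Its values in young sham were 0, 0.202 and 0.486 CPM, in adult sham 0, 0.226 and 0.423 CPM, and in adult burn 0.167, 0.180 and 0.740 CPM.

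The MCM2 to MCM7 proteins form the ring that unwinds DNA ahead of the replication fork. Mcm7 stood at 15.8, 12.9 and 12.6 CPM in young sham, 11.6, 18.2 and 14.5 CPM in young burn, 15.9, 14.5 and 13.3 CPM in adult sham, and 13.9, 18.0 and 15 CPM in adult burn. Mcm4 stood at 7.05, 7.27 and 9.96 CPM in young sham, 8.04, 9.46 and 7.33 CPM in young burn, 9.27, 12.2 and 7.82 CPM in adult sham, and 10.5, 7.74 and 8.69 CPM in adult burn. All groups overlapped for both genes, and with 12 libraries the smallest adjusted p of any comparison was 0.699 for Mcm7 and 0.407 for Mcm4. Mcm7 shares 557 exonic bases with its neighbours Ap4m1, Cops6, Mir25 and Mir93.

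Mcm6 (ENSMUSG00000026355.11, GRCm38 chr1:128331590-128359664, minus strand) was the helicase gene that passed a test. It stood at 5.10, 4.64 and 5.83 CPM in young sham, 9.11, 7.10 and 9.57 CPM in young burn, 5.98, 6.32 and 7.61 CPM in adult sham, and 3.51, 4.14 and 5.36 CPM in adult burn. Every young burn library lay above every young sham library, and every adult burn library lay below every adult sham library. Between burned mice, Mcm6 was higher in the young by 0.98 ± 0.22 on the log2 scale (SE, adjusted p = 0.0142, edgeR). Without young burn replicate 2 the difference was 1.11 ± 0.23 (adjusted p = 0.00480). The call was lost without young burn replicate 3 (adjusted p = 0.0534), without adult burn replicate 2 (0.0570), and with the burn groups fitted alone (0.0684). The burn effects themselves did not pass the test, at 0.73 ± 0.22 in the young (adjusted p = 0.114, and 0.0983 without young burn replicate 2) and -0.62 ± 0.23 in adults (adjusted p = 0.653, and 0.228 without that library). Their difference, tested as the interaction of burn and age, was 1.34 ± 0.32 on the log2 scale, with an unadjusted p of 0.000867 and an adjusted p of 0.683 over all genes. Without young burn replicate 2 it was 1.48 ± 0.33 (adjusted p = 0.154). These 4 comparisons use the same libraries and are not independent of each other.

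The remaining helicase genes did not pass the test in any comparison. Mcm2 stood lower in young sham, at 4.13, 6.46 and 6.80 CPM, than in adult sham, at 9.27, 9.03 and 10.8 CPM, and these groups did not overlap. The log2 fold change was -0.73 ± 0.28 (adjusted p = 0.157), and -0.74 without young burn replicate 2 (adjusted p = 0.0568). Mcm3 ranged from 3.43 to 8.81 CPM and Mcm5 from 0.807 to 3.16 CPM over the 12 libraries, with overlap in every comparison. Summed, the 6 helicase genes stood at 37.4, 35.5 and 44.9 CPM in young sham and at 45.5, 52.2 and 45.2 CPM in adult sham, a ratio of group means of 0.825 without overlap. In the burn groups the same sum ran from 43.8 to 46.4 CPM in the young and from 44.3 to 45.8 CPM in adults.

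Genes of DNA synthesis followed. Pcna stood at 28.7, 29.1 and 33.5 CPM in young sham, 31.6, 44.8 and 29.3 CPM in young burn, 30.9, 32.3 and 34.5 CPM in adult sham, and 36.1, 44.5 and 31.1 CPM in adult burn. One library of each burn group was higher than the rest and all groups overlapped. The averaged burn effect was 0.20 ± 0.12 on the log2 scale (adjusted p = 0.362) and the averaged age effect -0.09 ± 0.12 (adjusted p = 0.655). With 11 libraries they were 0.10 ± 0.10 (adjusted p = 0.621) and -0.20 ± 0.10 (adjusted p = 0.137). Of its annotated pseudogenes, Pcna-ps2 held at most 0.452 CPM and Pcna-ps1 was at 0.

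Rrm2 (ENSMUSG00000020649.11, chr12:24708241-24714146, plus strand) codes for the subunit of ribonucleotide reductase that is made in S phase. It stood at 0.972, 3.63 and 3.89 CPM in young sham, 2.86, 5.46 and 3.26 CPM in young burn, 1.03, 0.903 and 0.846 CPM in adult sham, and 1.84, 2.7 and 2.40 CPM in adult burn. Adult sham was the lowest group with 4 to 5 counts per library, and young sham replicate 1 lay at the same level. Averaged over sham and burn, Rrm2 was higher in young mice by 1.17 ± 0.32 on the log2 scale (adjusted p = 0.0225), and by 1.00 ± 0.32 without young burn replicate 2 (adjusted p = 0.0286). Between sham groups the difference was 1.60 ± 0.51 (adjusted p = 0.0985), which passed without that library (1.59, adjusted p = 0.0451), without young sham replicate 1 (1.99, adjusted p = 0.0229) and without the filter on low counts (1.58, adjusted p = 0.0342). Every adult burn library lay above every adult sham library, at a log2 fold change of 1.29 ± 0.52 with an adjusted p of 0.690 (0.244 without young burn replicate 2). The averaged call was lost on leaving out replicate 2 or 3 of either sham group, with adjusted p from 0.0532 to 0.0660.

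Tyms (ENSMUSG00000025747.12, chr5:30058202-30073617, minus strand) codes for thymidylate synthase, which makes the thymine nucleotide. It stood at 2.43, 2.62 and 2.67 CPM in young sham, 3.75, 2.73 and 4.07 CPM in young burn, 1.44, 1.35 and 1.27 CPM in adult sham, and 2.51, 0.540 and 1.48 CPM in adult burn. All young libraries but young sham replicate 1 lay above all adult libraries. Averaged over sham and burn, the difference was 1.05 ± 0.29 on the log2 scale (adjusted p = 0.0219), and 1.12 ± 0.30 without young burn replicate 2 (adjusted p = 0.0109). It fell short without young sham replicate 3 (adjusted p = 0.0515). Between burn groups the difference was 1.19 ± 0.38 (adjusted p = 0.0622), and 1.34 ± 0.41 without young burn replicate 2 (adjusted p = 0.0319). Tyms-ps, the annotated pseudogene, was at 0 in all libraries.

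**Figure D2:**
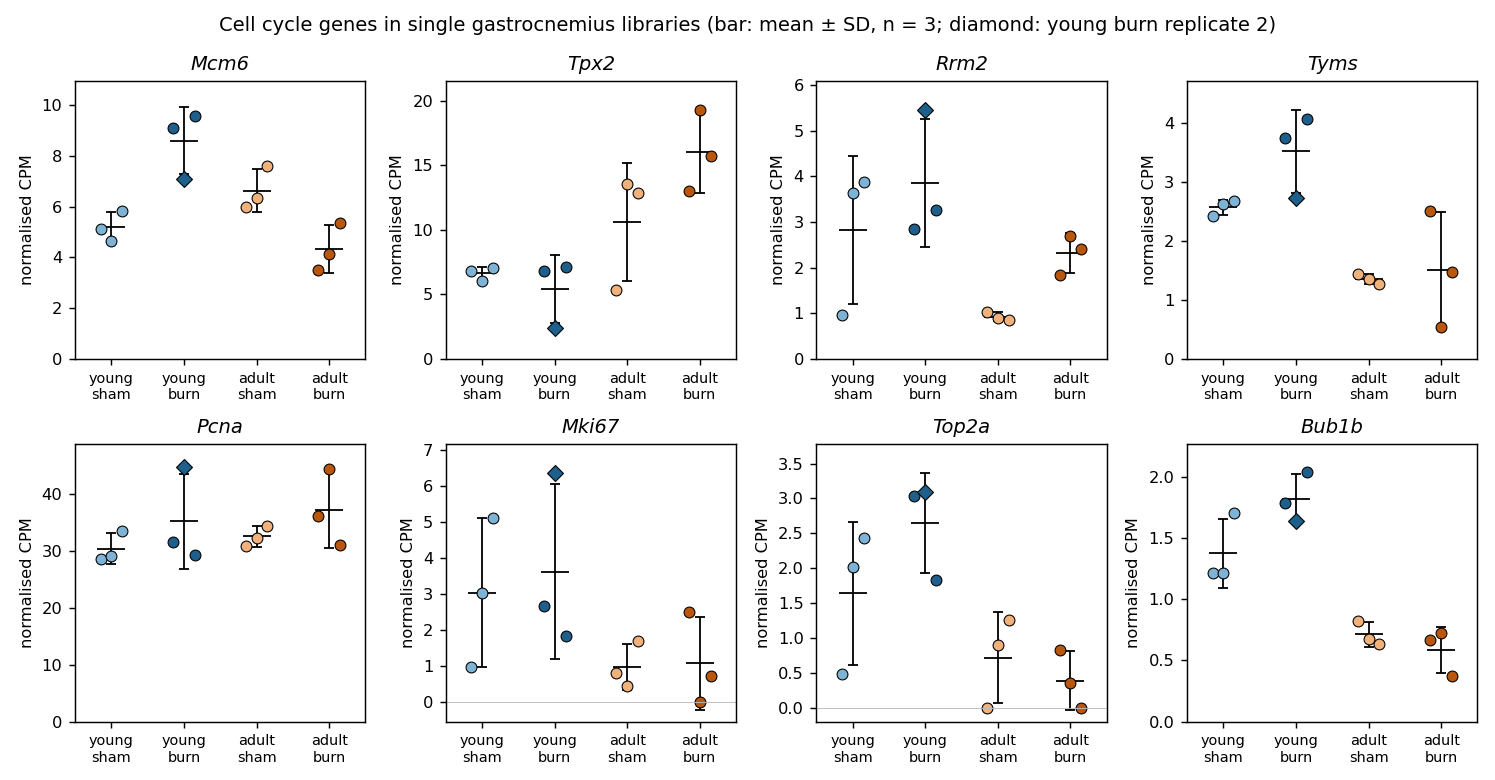
Normalised CPM of 8 genes in each of the 12 libraries, with the mean and SD of each group of 3, where the diamond marks young burn replicate 2. Mcm6 is highest in young burn and lowest in adult burn, Tpx2 stands above 10 CPM only in adult libraries, and Bub1b of the 6 young libraries lies above that of all 6 adult libraries.

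Mitotic cyclins and kinases came next. Aurka, the kinase that matures the spindle poles, stood at 4.13, 7.47 and 8.26 CPM in young sham, 6.61, 0.910 and 5.30 CPM in young burn, 8.04, 6.32 and 9.72 CPM in adult sham, and 6.18, 4.14 and 6.66 CPM in adult burn. Young burn replicate 2 held only 5 counts of Aurka and was the lowest library, while the groups otherwise overlapped. No difference passed the test, and the averaged burn effect was -0.57 ± 0.32 on the log2 scale (adjusted p = 0.321), and -0.32 ± 0.21 without that library (adjusted p = 0.437). Bub1b, a kinase-related component of the spindle checkpoint, was too low to test at 2 to 10 counts per library. It stood at 1.21, 1.21 and 1.70 CPM in young sham, 1.79, 1.64 and 2.04 CPM in young burn, 0.824, 0.677 and 0.634 CPM in adult sham, and 0.668, 0.720 and 0.370 CPM in adult burn. All 6 young libraries lay above all 6 adult libraries, with 47 counts summed against 20. Bub1b was the only gene of the 34 that separated the ages in this way, and 8.2% of all genes tested did so. That share covers genes that passed the count filter, which Bub1b did not.

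The other mitotic cyclins and kinases were lower still. Cdk1, the kinase that starts mitosis, held 38 counts in young and 15 in adult libraries, and its partner Ccna2 held 27 and 23. Plk1, Aurkb, Ccnb1 and Bub1 held between 14 and 23 counts over all 12 libraries. Ccnb2, cyclin B2, averaged 0.808 CPM, below the 1.93 CPM of its annotated pseudogene Ccnb2-ps. How reads of these 2 copies were assigned was not examined, so the values of Ccnb2 are uncertain.

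The anaphase-promoting complex marks mitotic proteins for destruction with the help of Cdc20, its activator, and Ube2c, its ubiquitin-conjugating enzyme. Cdc20 held 1 to 5 counts per library. It stood at 1.21, 0.202 and 0.729 CPM in young sham, 0.536, 0.910 and 0.407 CPM in young burn, 0.824, 0.677 and 0.634 CPM in adult sham, and 0.167, 0.540 and 0.925 CPM in adult burn, with overlap throughout. Ube2c stood at 2.19, 5.05 and 4.37 CPM in young sham, 4.46, 2.0 and 1.83 CPM in young burn, 1.44, 1.81 and 3.38 CPM in adult sham, and 2.67, 3.24 and 2.22 CPM in adult burn. It did not pass the test in any comparison. Ube2c shares 592 of its 2600 exonic bases with Tnnc2, the fast troponin C, which lies on the opposite strand. Tnnc2 was listed at 0 to 1.35 CPM in this muscle, while the other fast troponins Tnnt3 and Tnni2 averaged 24298 and 13247 CPM. Which strand the counting used was not stated in the sources, so it is not known how reads in the shared bases were counted. The values of Ube2c are therefore uncertain, and the cause of the low Tnnc2 was not tested.

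Among the 10 genes of the spindle, kinetochore and cytokinesis, Tpx2 (ENSMUSG00000027469.16, chr2:152847964-152895321, plus strand) was the only one with enough counts to test. It codes for the microtubule factor that activates Aurora A kinase on the spindle. Tpx2 stood at 6.80, 6.06 and 7.05 CPM in young sham, 6.79, 2.37 and 7.13 CPM in young burn, 5.36, 13.5 and 12.9 CPM in adult sham, and 13.0, 19.3 and 15.7 CPM in adult burn. All adult libraries except adult sham replicate 1 lay above all young libraries. Between burn groups Tpx2 was lower in the young, at a log2 fold change of -1.56 ± 0.36 (adjusted p = 0.0172), and of -1.19 ± 0.30 without young burn replicate 2 (adjusted p = 0.0125). Averaged over sham and burn the difference was -1.12 ± 0.26 (adjusted p = 0.00973), and -0.94 ± 0.21 without that library (adjusted p = 0.00372). The averaged call held in every alternative and on leaving out any library. The call between burn groups was lost without adult burn replicate 2 (adjusted p = 0.0668), without adult burn replicate 3 (0.0550), and with the burn groups fitted alone (0.0600). Kif11, the motor that pushes spindle poles apart, ran the other way with 56 young and 31 adult counts. It stood at 1.70, 2.02 and 2.43 CPM in young sham, 1.43, 2.55 and 1.43 CPM in young burn, 1.44, 0.452 and 1.48 CPM in adult sham, and 1.34, 1.08 and 0.185 CPM in adult burn.

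Mki67 (chr7:135689784-135716361, minus strand) and Top2a, topoisomerase II alpha, which untangles chromosomes, are the usual markers of dividing cells. Mki67 stood at 0.972, 3.03 and 5.10 CPM in young sham, 2.68, 6.37 and 1.83 CPM in young burn, 0.824, 0.452 and 1.69 CPM in adult sham, and 2.51, 0 and 0.740 CPM in adult burn. The groups overlapped, since young sham replicate 1 was low and adult burn replicate 1 high. Averaged over sham and burn, Mki67 was higher in young mice by 1.64 ± 0.57 on the log2 scale, with an adjusted p of 0.0581 in edgeR and 0.0262 in DESeq2. Without young burn replicate 2 the difference was 1.29 (adjusted p = 0.0837, edgeR), and without adult burn replicate 1 it was 2.41 (adjusted p = 0.0197). Top2a stood at 0.486, 2.02 and 2.43 CPM in young sham, 3.04, 3.09 and 1.83 CPM in young burn, 0, 0.903 and 1.27 CPM in adult sham, and 0.836, 0.360 and 0 CPM in adult burn. Every young burn library lay above every adult burn library, and the summed counts were 65 in young and 17 in adult mice.

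Counted over the set, shares of called genes were set beside those of all genes. In young against adult mice averaged over sham and burn, 3 of 14 genes tested were called (Rrm2 and Tyms higher, Tpx2 lower), which is 21.4%, where 20.3% of all genes tested were called. In young burn against adult burn, 2 of 14 were called (Mcm6 higher, Tpx2 lower), against 10.8% of all genes. Without young burn replicate 2 these counts were 3 and 3, beside 31.6% and 20.7% of all genes. In young sham against adult sham none of the 14 was called with all libraries, against 3.76% of all genes. There 2 genes had an unadjusted p under 0.05, beside 20.2% of all genes, and DESeq2 called 0, beside 5.38%. In that comparison Rrm2 was called without young burn replicate 2, beside 11.8% of all genes. Over the 14 genes the median log2 difference between ages was 0.12 on average, -0.09 in sham and -0.02 in burn, beside 0.02, 0.01 and 0.02 over all genes tested. The same medians without young burn replicate 2 were 0.14, -0.10 and 0.16, so that the one in burn changed sign. The averaged age comparison draws on the same libraries as the comparisons within sham and within burn.

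**Figure D3:**
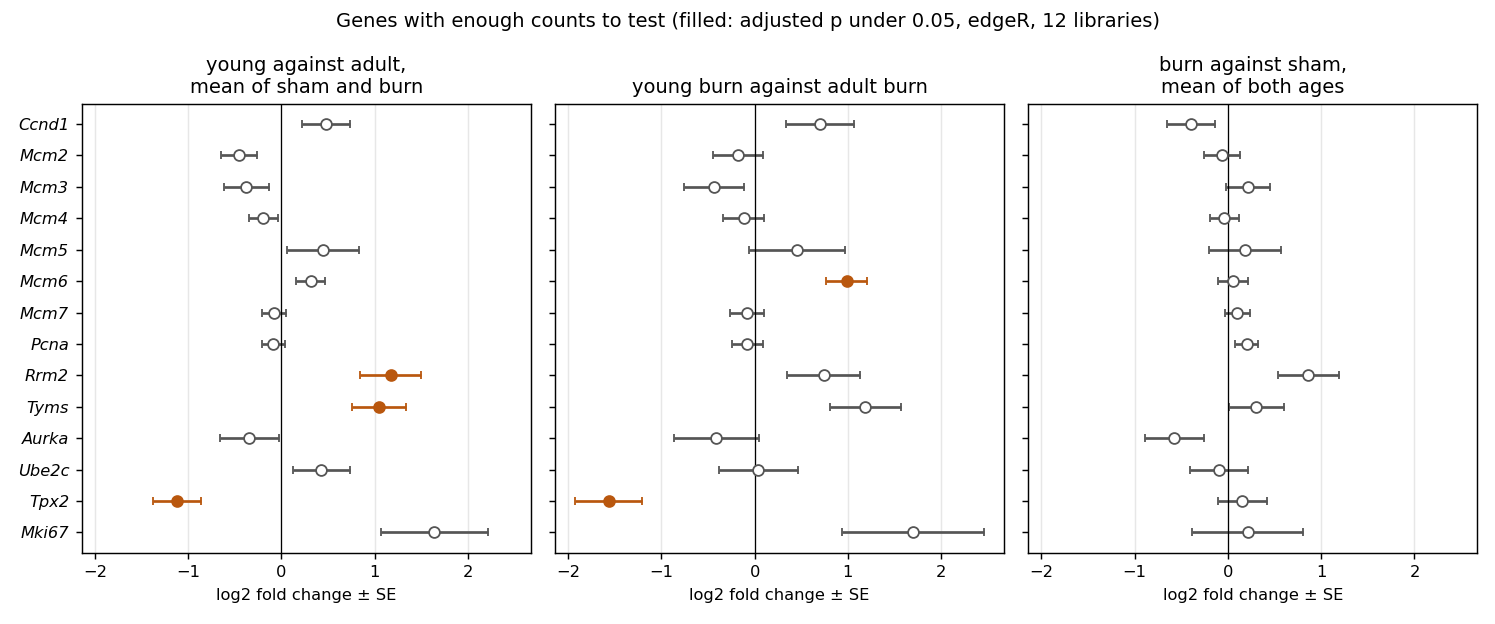
Log2 fold change and SE of the 14 genes with enough counts, for young against adult averaged over sham and burn, for young burn against adult burn, and for burn against sham averaged over both ages, with filled orange points at an adjusted p under 0.05 in edgeR with 12 libraries. Rrm2, Tyms and Tpx2 are filled in the first panel, Mcm6 and Tpx2 in the second, and no gene in the third.

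The burn moved no gene of the set past the threshold. In adult burn against adult sham 0 of 14 were called by edgeR and 0 by DESeq2, against 0.00806% and 0.0887% of all genes. There 2 of 14 had an unadjusted p under 0.05 in edgeR (Mcm6 lower, Rrm2 higher), beside 6.87% of all genes. In young burn against young sham 0 of 14 were called by either tool, against 0.0645% of all genes in edgeR and 3.48% in DESeq2. There 1 of 14 had an unadjusted p under 0.05 in edgeR (Mcm6 higher), beside 20.3% of all genes. Averaged over both ages 0 of 14 were called by either tool, against 0.911% of all genes in edgeR and 3.55% in DESeq2. There 1 of 14 had an unadjusted p under 0.05 in edgeR (Rrm2, higher by 0.86 ± 0.33 on the log2 scale, adjusted p = 0.179), beside 20% of all genes. The interaction of burn and age called 0 of 14 with either tool, beside 0% of all genes in edgeR and 0.00806% in DESeq2. Without young burn replicate 2 each of these 4 counts stayed at 0, while all genes called came to 0.909%, 0.664%, 2.81% and 0.0949%. The median log2 difference of the 14 genes was 0.16 for burn in adults and 0.17 in the young, beside 0.00041 and 0.0084 over all genes tested. The median in the young fell to 0.051 when young burn replicate 2 was left out. These counts do not show that the burn left the set unchanged.

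Because single mitotic genes held few counts, their CPM were also summed. Aurka, Tpx2 and Ube2c hold most of the mitotic counts, so the sum was taken over the other 20 mitotic genes, which hold 12.4% of the counts of the set. This grouping was chosen after the values were seen and is a description without a test. The sum stood at 11.9, 17.8 and 26.0 CPM in young sham, 20, 30.8 and 18.9 CPM in young burn, 10.5, 9.03 and 14.2 CPM in adult sham, and 14.7, 7.20 and 4.99 CPM in adult burn. Every young burn library lay above every adult burn library, at 2.59 times in the group means and 2.17 times without young burn replicate 2. Sham groups overlapped, with a ratio of young to adult of 1.65. Burn against sham gave 1.25 in the young, 1.05 without young burn replicate 2, and 0.798 in adults, with overlap in both. With Aurka, Tpx2 and Ube2c included, the 23 mitotic genes gave a young to adult ratio of 1.09 over all 6 libraries each, against 2.07 for the 20 genes, or 1.87 without young burn replicate 2.

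Gene by gene, 20 of the 23 mitotic genes had a higher mean in the 6 young than in the 6 adult libraries, where 52.7% of all genes tested did. The exceptions were Aurka, Tpx2 and Prc1, and without young burn replicate 2 Cdc20 joined them. Young burn and adult burn did not overlap for 12 of the 34 genes, where 30.3% of all genes tested did not overlap. Tpx2 was lower in young burn and 11 were higher, namely Mcm6, Rrm2, Tyms, Plk1, Bub1, Bub1b, Cenpf, Kif11, Kif23, Hmmr and Top2a, of which 8 held too few counts to test. The sham groups did not overlap for 9 of the 34, beside 31.2% of all genes, adult burn and adult sham for 4, beside 20%, and young burn and young sham for 3, beside 21.8%. The shares of all genes tested cover only genes that passed the count filter, while 20 of the 34 genes did not pass it. The counts of the set and these shares therefore cover genes of unlike depth. Many of these values rest on 0 to 10 counts, and the genes are measured in the same libraries and are not independent of each other.

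**Figure D4:**
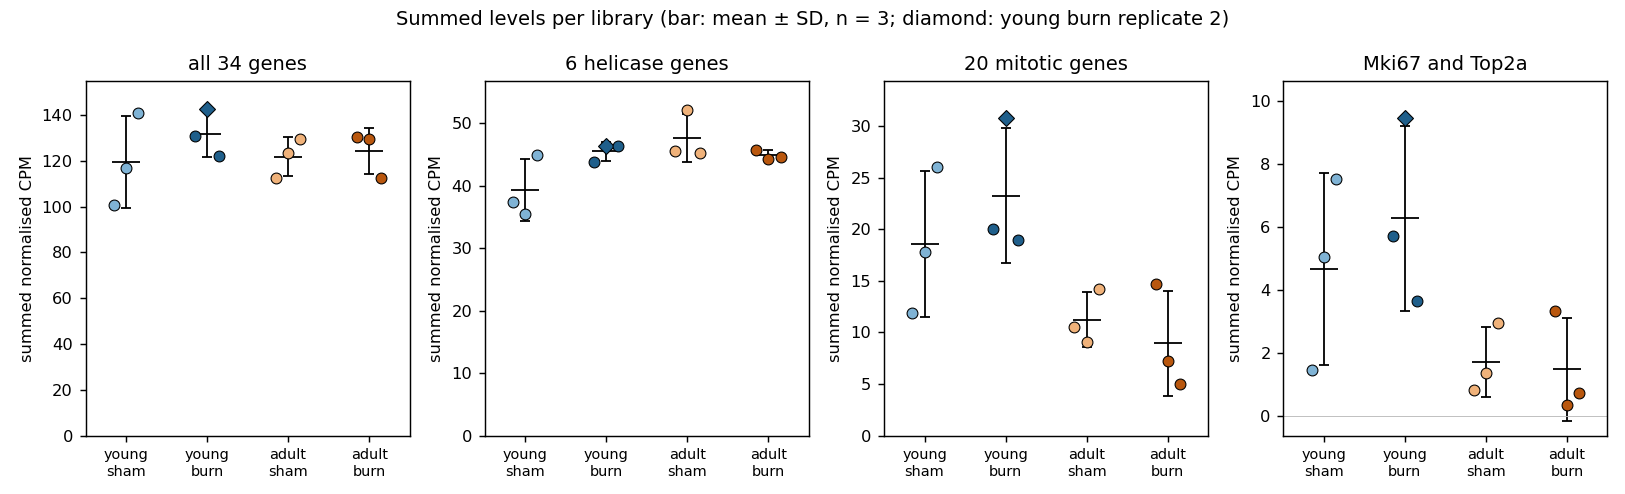
Summed normalised CPM per library for all 34 genes, the 6 helicase genes, the 20 mitotic genes without Aurka, Tpx2 and Ube2c, and Mki67 with Top2a, with the mean and SD of each group of 3 and a diamond for young burn replicate 2. The sum of all genes lies between 101 and 142 CPM, while the 20 mitotic genes of young burn all lie above those of adult burn.

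Promoter sequences of the set are shown by role because the mitotic and the replication genes are read by different transcription factors in dividing cells. RefSeq windows on GRCm38.p6, from 250 bases before to 50 after a start site, were found for 28 of the 34 genes, as 30 windows. No window was used for Ccnd1, Mcm4, Ccna2, Aurkb, Kif20a and Tpx2. On both strands, CHR was searched as TTTGAA or TTCGAA, the CCAAT box as CCAAT, and the E2F core as TTCCCGC or in the form TTGGCGC or in the form TTCGCGC or in the form TTGCCGC. The reverse of TTGGCGC ends in CCAA and can overlap a CCAAT box. Stretches before the start site are printed 5′ to 3′ on the strand of the gene, in lower case, with matches to any of these motifs in capitals. Mki67 (chr7:135716439-135716569) and Top2a (chr11:99024205-99024379) stand for proliferation markers, Cdk1 (chr10:69352913-69353094) for mitotic kinases, and Rrm2 (chr12:24708014-24708214) and Mcm6 (chr1:128359706-128359817) for replication genes called above. Rrm2 lies on the plus strand and the others on the minus strand.
Mki67: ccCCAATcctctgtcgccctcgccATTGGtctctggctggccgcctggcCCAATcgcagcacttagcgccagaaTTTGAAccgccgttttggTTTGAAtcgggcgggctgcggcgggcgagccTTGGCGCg
Top2a: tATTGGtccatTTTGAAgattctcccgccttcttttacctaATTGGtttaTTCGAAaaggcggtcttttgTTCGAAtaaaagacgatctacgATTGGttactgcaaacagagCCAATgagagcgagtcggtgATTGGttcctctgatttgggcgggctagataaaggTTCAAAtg
Cdk1: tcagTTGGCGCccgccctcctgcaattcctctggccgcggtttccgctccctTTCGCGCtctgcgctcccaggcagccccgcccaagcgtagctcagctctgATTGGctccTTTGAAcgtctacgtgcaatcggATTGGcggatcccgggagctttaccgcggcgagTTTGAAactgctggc
Rrm2: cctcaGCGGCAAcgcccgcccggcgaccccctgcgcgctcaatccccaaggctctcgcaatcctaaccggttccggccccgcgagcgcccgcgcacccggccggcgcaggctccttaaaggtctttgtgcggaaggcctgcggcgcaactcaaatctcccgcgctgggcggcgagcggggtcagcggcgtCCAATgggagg
Mcm6: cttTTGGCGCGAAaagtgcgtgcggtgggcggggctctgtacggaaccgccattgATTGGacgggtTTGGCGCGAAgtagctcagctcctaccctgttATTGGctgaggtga

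In the stretch shown, Mki67 and Top2a hold several CCAAT boxes on either strand and CHR elements near them. Mcm6 holds paired E2F cores and CCAAT boxes but no CHR, and Rrm2 holds 1 E2F core and 1 CCAAT box. Over the windows, CHR was found in 80% of 20 windows of mitotic genes, in 22.2% of 9 windows of helicase and DNA synthesis genes, and in 19.2% of 32851 windows of all genes. The CCAAT box was found in 90%, 88.9% and 37.4% of these. The E2F core was found in 20%, 66.7% and 9.57%. CHR and CCAAT together were found in 80%, 22.2% and 7.52%. Aurka and Ube2c hold CHR and CCAAT like most other mitotic genes, and Tyms, Nusap1, Birc5 and Ccne1 hold none of the motifs. A match is a stretch of letters and not a measured binding site, and none of these shares was tested.

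**Figure D5:**
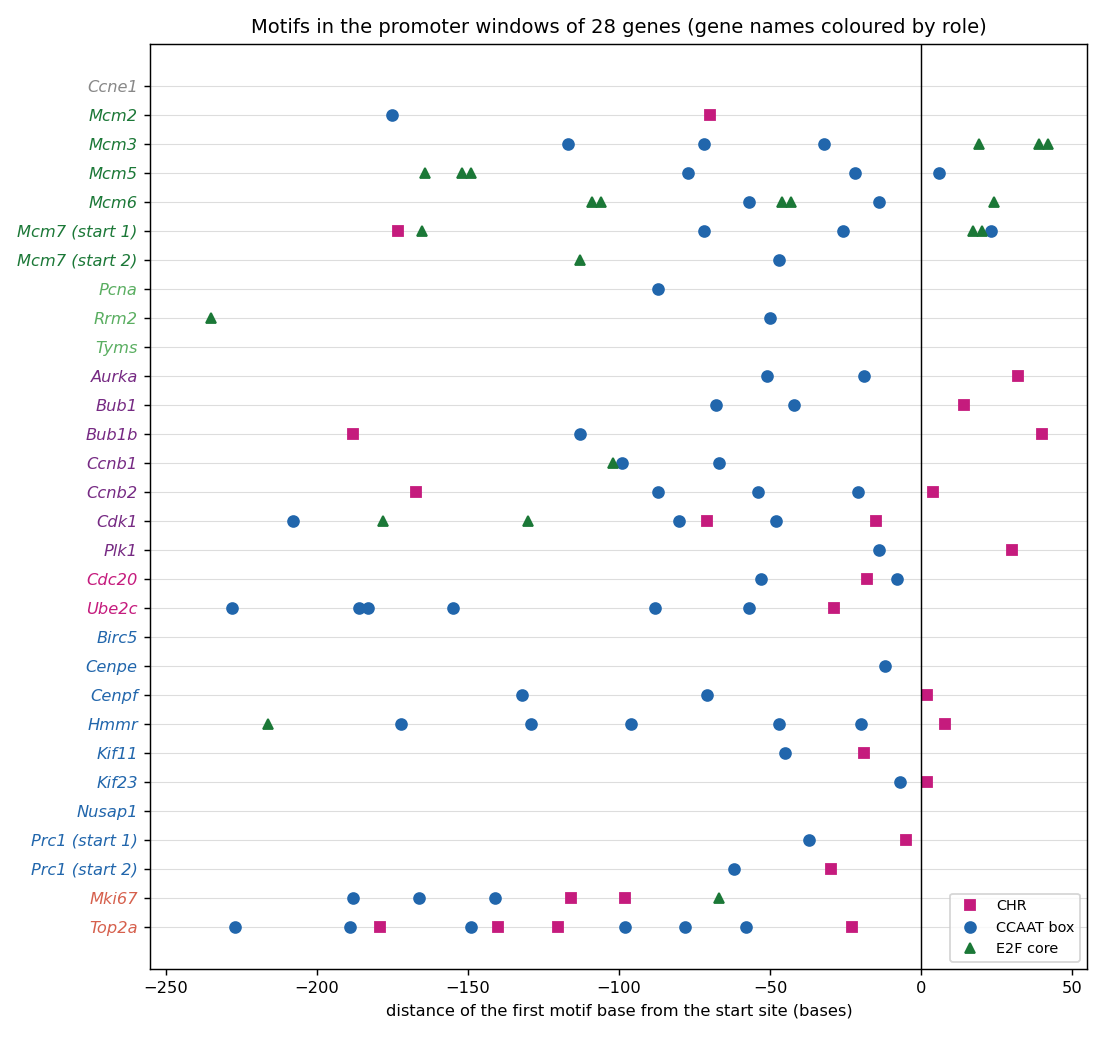
Position of CHR (squares), CCAAT (circles) and E2F core (triangles) matches, in bases from the start site, in 30 promoter windows of 28 genes, with gene names coloured by role. Squares appear in most mitotic genes and in 2 windows of the helicase and DNA synthesis genes, and triangles cluster in the helicase genes.

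The other cell cycle genes, 114 genes of 6 lists, gave a background for the set, and 80 of them were tested. Averaged over sham and burn, 24 of the 80 were called between ages, 9 higher and 15 lower in the young, which is 30.0% beside the 20.3% of all genes. Between burn groups 15 were called, 5 higher and 10 lower, beside 10.8% of all genes, and between sham groups 3, beside 3.76%. In the burn comparisons and in the interaction edgeR called 0 of the 80. An unadjusted p under 0.05 was held by 5 of the 80 in adult burn against adult sham, where 6.87% of all genes tested had one, by 11 in young burn against young sham (20.3%), by 6 in the interaction (7.18%) and by 15 for the averaged burn (20%). DESeq2 called 2 in young burn against young sham (Gadd45b and Pttg1) and 0 in the others.

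Cdkn1c, the CDK inhibitor p57, was the gene of these lists with the smallest p between ages. It stood at 98.9, 81.7 and 153 CPM in young sham, 149, 70.2 and 101 CPM in young burn, 29.3, 28.2 and 31.5 CPM in adult sham, and 29.2, 31.3 and 50.1 CPM in adult burn. All young libraries lay above all adult libraries, and the averaged log2 difference was 1.72 ± 0.21 (adjusted p = 0.000181). Of the 14 inhibitors and arrest genes tested, 2 were higher and 2 lower, where 20.3% of all genes tested were called in this averaged comparison. Cdkn2c, or p18, was lower in the young (-0.59 ± 0.16, adjusted p = 0.0184), as was Gadd45g, a stress-induced arrest gene (-1.58 ± 0.35, adjusted p = 0.00806), while Btg1, an antiproliferative gene, was higher (0.34 ± 0.08, adjusted p = 0.0102).

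E2F regulators were called in both directions between ages, in a comparison that called 20.3% of all genes tested. E2f1, an activator, was higher in the young at 131 counts over all libraries (1.30 ± 0.32, adjusted p = 0.0134). E2f4 and E2f6, both repressors, were lower (-0.63 ± 0.12, adjusted p = 0.00266, and -0.62 ± 0.10, adjusted p = 0.00138), as were their partner Tfdp2 (-0.72 ± 0.14, adjusted p = 0.00439), Rbl2, an RB relative (-0.64 ± 0.21, adjusted p = 0.0469), and Lin52 of the DREAM complex (-0.52 ± 0.13, adjusted p = 0.0152). E2f6 stood at 70.7 to 77.7 CPM in young sham, 66.6 to 104 CPM in young burn, 111 to 127 CPM in adult sham, and 121 to 126 CPM in adult burn, so that all young libraries lay below all adult ones. Foxm1 and Mybl2, which drive mitotic genes, held 22 and 20 counts in all and were not tested. Of the G1 genes, Ccnd2 (0.66 ± 0.15, adjusted p = 0.00788), Ccnd3 and Cdk6 were higher and Ccne2 lower in the young.

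The other subunits of ribonucleotide reductase were lower in the young. Rrm1, the large subunit of ribonucleotide reductase, was lower in the young, at -0.47 ± 0.12 on the log2 scale (adjusted p = 0.0162), as was Rrm2b, the small subunit used outside S phase, at -0.52 ± 0.10 (adjusted p = 0.00393). Rrm1 stood at 25, 27 and 28.2 CPM in young sham, 26.8, 14.6 and 20.6 CPM in young burn, 35.0, 35.0 and 32.3 CPM in adult sham, and 30.2, 32.6 and 30.7 CPM in adult burn. For both genes all young libraries lay below all adult libraries. Rpa2, of the single-strand binding protein, Rfc2 and Rfc4, of the clamp loader, were also lower. In all 5 of the 22 fork and nucleotide genes tested were called, which is 22.7% beside 20.3% of all genes. Of 9 origin genes tested Orc6 was higher and Orc2 lower, and Orc6 lost its call without young burn replicate 2 (adjusted p = 0.0753). Of 12 other mitotic genes tested, Smc4, a condensin subunit (0.81 ± 0.15, adjusted p = 0.00238), and Cenpa, the centromeric histone, were higher, and Pttg1, or securin, was lower (-0.44 ± 0.08, adjusted p = 0.00324).

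Markers of the cells in the tissue moved with age and burn as well. The 6 markers of muscle fibres were all counted and summed to 88830 to 184868 CPM. Summed markers of fibroblasts were at 5899 to 6263 CPM in young sham, 5709 to 7300 CPM in young burn, 2486 to 3280 CPM in adult sham and 2571 to 3333 CPM in adult burn. Endothelial markers ran from 343 to 459, from 378 to 499, from 309 to 333 and from 284 to 313 CPM in the same order of groups. Macrophage markers ran from 152 to 200, from 272 to 433, from 148 to 175 and from 180 to 255 CPM, and satellite cell and myoblast markers from 71.2 to 84.6, from 92.8 to 121, from 75.9 to 80.7 and from 76.4 to 102 CPM. All markers of these 4 lists had counts. The fibroblast and endothelial sums were higher in all young than in all adult libraries. Only 2 of 6 fibroblast markers (Col1a1 and Col3a1) and 3 of 6 endothelial markers (Cdh5, Emcn and Esam) were so singly. Of the 6 satellite cell and myoblast markers, Myog and Mymk, which act in differentiation and fusion of myoblasts, were higher in all young than in all adult libraries. Myog averaged 28 CPM in young and 5.60 CPM in adult libraries, and Mymk 3.81 and 0.128 CPM, while Myod1, which overlapped, averaged 24.2 and 40.6 CPM. All 6 macrophage markers were higher in every young burn than in every young sham library, and their sum was highest in young burn. Neutrophil markers without Ly6g, which was at 0, stood at 8.75 to 26.9 CPM in young burn and at most 12.9 CPM elsewhere. Of the 4 keratinocyte markers, Krt5 and Krt14 were at 0 and Lor held 11 counts in all. Krt10 held 404 counts, with 24 to 54 per library, and was the only one tested. It was called higher in young sham than in adult sham, and in young mice averaged over sham and burn, but not between burn groups. The part of these cells in the levels of the cell cycle genes was not tested.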

How the data were processed

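Raw gene counts were used as deposited for 12 libraries, 1 per mouse. The authors made poly-A libraries with the NEBNext Ultra II kit, aligned the reads with STAR to GRCm38, and let STAR count them on Gencode M25 genes. The submitters' processing notes list STAR 2.7.5c and bcl2fastq 2.20. STAR drops a read that overlaps more than 1 gene, and the strand setting was not stated in the sources. The counts were whole numbers, not normalised or filtered, and the miRNA counts of the series were not used here.

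Positions, symbols and exon lengths came from Gencode M21 on the same build, where 260 of 55401 identifiers had no symbol. Counts were TMM-normalised in edgeR 4.0.16 (R 4.3.3), filtered by filterByExpr (minimum count 10, minimum total count 15), and fitted with 1 mean per group over all 12 libraries without covariates. Two-sided quasi-likelihood p-values were adjusted by Benjamini-Hochberg across every gene tested (12408 with 12 libraries, 12651 with 11), and calls needed an adjusted value under 0.05. The SE of each edgeR log2 difference was derived from the test, as the size of the difference divided by the square root of its F statistic. DESeq2 1.42.0 was the alternative. The labels do not name separate cages or days, so p-values measure the spread between these mice. Sums over genes were described without a test. Named in full are the genes called in any comparison and the 2 highest of each role by CPM. Other cell cycle genes are named where called, up to 10 per comparison by p, and otherwise as the 3 highest of a list; those beyond this rule were chosen after their values were seen. The 34 genes, the lists and the tests were chosen with earlier results of these data known. Alternatives were RLE size factors, library size alone, no filter, a replicate block, leaving out each library and fitting 2 groups alone. Promoter windows were RefSeq sequences on GRCm38.p6. Figures were drawn with matplotlib 3.10.9.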

Additional observations from a re-analysis of the deposited data

How the results depend on the processing

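No called difference of Mcm6, Tpx2, Rrm2 or Tyms reversed its direction under any alternative run. Leaving out young burn replicate 2 changed the sign of 13 of 98 log2 differences of the 14 genes, none of them called and each at most 0.55 in size, and moved 6 of 33 ratios of sums across 1, among them that of all 34 genes between ages, from 1.02 to 0.994. Without the filter on low counts all 34 genes were tested. Of 28528 genes, edgeR then called 1011 between sham groups, 1787 between burn groups and 2853 between ages on average. With the filter, the count of called genes among the 14 tested between sham groups was 0, but 2 of 34 without the filter (Rrm2 among them), and 0 to 1 on leaving out 1 library (1 when young sham replicate 1 was dropped, and 1 when young burn replicate 2 was). Between burn groups it was 2, but 5 without the filter, 0 with these groups fitted alone, and 0 to 5 on leaving out 1 library (0 when adult burn replicate 2 was dropped, 1 for replicate 3 of either burn group, and 5 for adult burn replicate 1). Between ages on average it was 3, but 7 without the filter, 4 with DESeq2, and 1 to 6 on leaving out 1 library (1 when young sham replicate 3 was dropped, 5 for young sham replicate 1, and 6 for adult burn replicate 1). In young burn against young sham it was 0, but 1 with library size alone. That scaling moved the median log2 ratio of all genes by 0.24 there, by -0.14 between sham groups and by 0.11 between burn groups, and gave a ratio of the 34-gene sum of 1.32 in place of 1.10. The averaged call of Rrm2 was also lost with DESeq2 without young burn replicate 2 (adjusted p = 0.0554). Tyms between burn groups passed with library size alone (adjusted p = 0.0495) and without adult burn replicate 1 (adjusted p = 0.0230). The cause of these changes was not tested.

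Without the filter more of the other cell cycle genes were tested, out of 28528 genes in all. Among the other cell cycle genes, called genes between sham groups were 3, but 7 without the filter, 7 with these groups alone, 7 with DESeq2 on 11 libraries, and 1 to 9 on leaving out 1 library (9 when young burn replicate 2 was dropped, and 1 for young sham replicates 2 and 3 and adult sham replicates 1 and 3). Between burn groups they were 15, but 4 with these groups alone and 4 to 22 on leaving out 1 library (4 when replicate 3 of either burn group was dropped, 5 for adult burn replicate 2, 9 for adult burn replicate 1). In adult burn against adult sham they were 0, but 2 without the filter and 1 with DESeq2 on 11 libraries. In young burn against young sham they were 0, but 4 without the filter, 2 with DESeq2, 1 with DESeq2 on 11 libraries, and 0 to 3 on leaving out 1 library (3 when young burn replicate 1 was dropped). Without the filter the interaction called 1 and the averaged burn effect 7, where the latter was 1 when young burn replicate 1 was dropped. DESeq2 on 11 libraries, which leave out young burn replicate 2, the settings for these other genes and the sum without Aurka, Tpx2 and Ube2c were added after the data were seen.

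Replicate numbers are shared by the groups, but same-numbered libraries deviated together with correlations of only -0.20 to 0.15, so the numbers were not taken to pair mice. With the replicate block the counts of called genes of the set were unchanged, at 2 between burn groups and 3 between ages on average, and those of the other cell cycle genes were 2 between sham groups, 13 between burn groups and 24 between ages.

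Depth limits the set. At about 1 count for each 0.167 to 0.243 CPM, 20 of the 34 genes could not be tested, and genes such as Mki67 and Rrm2 held 0 to 35 counts per library. The paper's RNA quality report gave no RNA integrity number for any sample. Its ratios of large to small ribosomal RNA were higher on average in adult sham than in young sham. Whether RNA quality affected the levels was not tested. With 3 mice per group and 1 young burn library that stands apart, a gene that missed the threshold was not shown to be unchanged.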
